A study of Mus musculus with 7 samples.

Results

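Thymocytes that had taken different T cell receptor (TCR) decisions were compared, namely double-negative 4 (DN4) thymocytes with a γδ TCR on the surface (DN4 γδ+) and DN4 thymocytes without one (DN4 γδ−). The study sorted mouse thymocytes into 7 groups and measured single-cell RNA as unique molecular identifiers (UMIs, each marking 1 captured transcript molecule), with 1 library per group. Both DN4 libraries came from pooled thymi of wild type (WT) C57BL/6 mice of both sexes aged 6 to 8 weeks, without treatment. Each received 500 sorted splenic B cells before loading. The other libraries were DN3a, DN3b γδ− and DN3b γδ+ of WT mice, used here for side-by-side values, and 2 libraries of mice without the adaptor LAT, not analysed here.

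The groups were set by the sort. Both were NK1.1− cells left after magnetic depletion of CD4- and CD8-bearing thymocytes. DN4 γδ− cells were CD25− and also CD71+, CD71 being the transferrin receptor of growing cells, so this gate took cycling progeny of β-selection. DN4 γδ+ cells were TCRδ+ CD3+ and CD24+ CD44low, as the DN3b γδ+ cells were, and the study defines the DN4 stage as CD25−. The most mature thymic γδ T cells (CD24− CD44high) were thus outside the gate, and CD71 played no part in it. Barcodes were kept with at least 1000 detected genes, at most 10% mitochondrial UMIs and at most 1 UMI of the B cell genes Cd79a, Cd79b and Ms4a1. This left 7353 of 11204 barcodes of DN4 γδ+ and 11986 of 15916 of DN4 γδ−, together 19339 of the 66446 that the same rule kept in the whole series. As each group had 1 library, no difference between groups was tested, and every 95% interval covers counting error only.

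As background, a thymocyte that assembles TCRγ and TCRδ chains leaves the DN3 stage through γδ selection, whereas one that assembles a TCRβ chain pairs it with the invariant pTα chain in the pre-TCR and passes β-selection. β-selected cells divide in a burst, switch on CD8 and CD4, and then rearrange their TCRα genes. γδ-selected cells receive a stronger signal through CD3, ERK and EGR factors and acquire interferon-γ (γδ1) or interleukin-17 (γδ17) effector programmes while still in the thymus.

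The kept barcodes held 68370681 UMIs in DN4 γδ+ and 241543178 in DN4 γδ−, and the median barcode had 7179 UMIs and 2305 genes in the former and 19177 UMIs and 3785 genes in the latter. The spiked B cells give a check of the 2 libraries on 1 cell kind. B-like barcodes numbered 182 in DN4 γδ+ and 187 in DN4 γδ−, with medians of 3369.5 and 3177 UMIs, so that the ratio of γδ− over γδ+ medians was 0.943 in B-like barcodes and 2.67 in thymocytes. Levels are in CPM, the UMIs of a gene scaled to the same total in every library. All 10 T cell markers reached 20 CPM in at least 1 of the libraries, and the kept barcodes without a UMI of Cd3d, Cd3e or Cd3g numbered 2 in DN4 γδ+ and 30 in DN4 γδ−. The 2 libraries shared 23 barcode sequences, 0.313% of the γδ+ and 0.192% of the γδ− barcodes. Summed markers of other cells were 277 CPM in DN4 γδ+ and 279 CPM in DN4 γδ− for 10 B cell genes, 0.863 and 1.46 CPM for 7 myeloid genes, 0.453 and 22.6 CPM for 4 haemoglobin genes, and 23.6 and 0.604 CPM for 5 natural killer (NK) cell genes. The NK-defining receptor gene Ncr1 was at 0 in both. Of 5 plasmacytoid markers, summed at 196 CPM in DN4 γδ+ and 931 CPM in DN4 γδ−, Siglech was at 0 in DN4 γδ+ and at 0.00828 CPM in DN4 γδ−, and Ly6d alone gave 28.3 and 690.9 CPM. The 10 markers of double-positive thymocytes, Rag1 and Cd8b1 among them, summed to 284 CPM in DN4 γδ+ and 688 CPM in DN4 γδ−. The 10 markers of mature αβ T cells, which include Trac, Trbc1 and Trbc2, summed to 6373 and 4129 CPM. These marker sums touch the TCR, γδ1 and pre-TCR results given below, and their part in them was not tested.

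The genome-wide contrast was broad. Of 5834 genes with at least 20 CPM in 1 of the libraries, 1058 (18.1%) were at least 2-fold higher in DN4 γδ+ and 525 (9.0%) at least 2-fold lower, and the median log2 ratio of γδ+ over γδ− was 0.10. The higher side also held the wider differences, with 384 genes at 4-fold and 177 at 8-fold, against 45 and 10 on the lower side. With TMM factors in place of library totals every log2 ratio moved by -0.33, and 728 genes were higher and 1032 lower, so the share of the calls on the higher side went from 66.8% to 41.4%. Genes named with a ratio between 0 and 0.33 are therefore below 0 under TMM. Members of the gene lists below were measured by the same 20 CPM rule. A member that is low in 1 library could enter only through the library where it is high. Counts and medians of measured members are therefore descriptions, to be read beside the shares of 18.1% and 9.0%. In the B-like barcodes, the same spiked cells in both libraries, 77 of 1240 genes at 100 CPM or more in these barcodes (6.21%) were past 2-fold, against 332 of the same genes (26.8%) in the thymocytes.

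**Figure D1:**
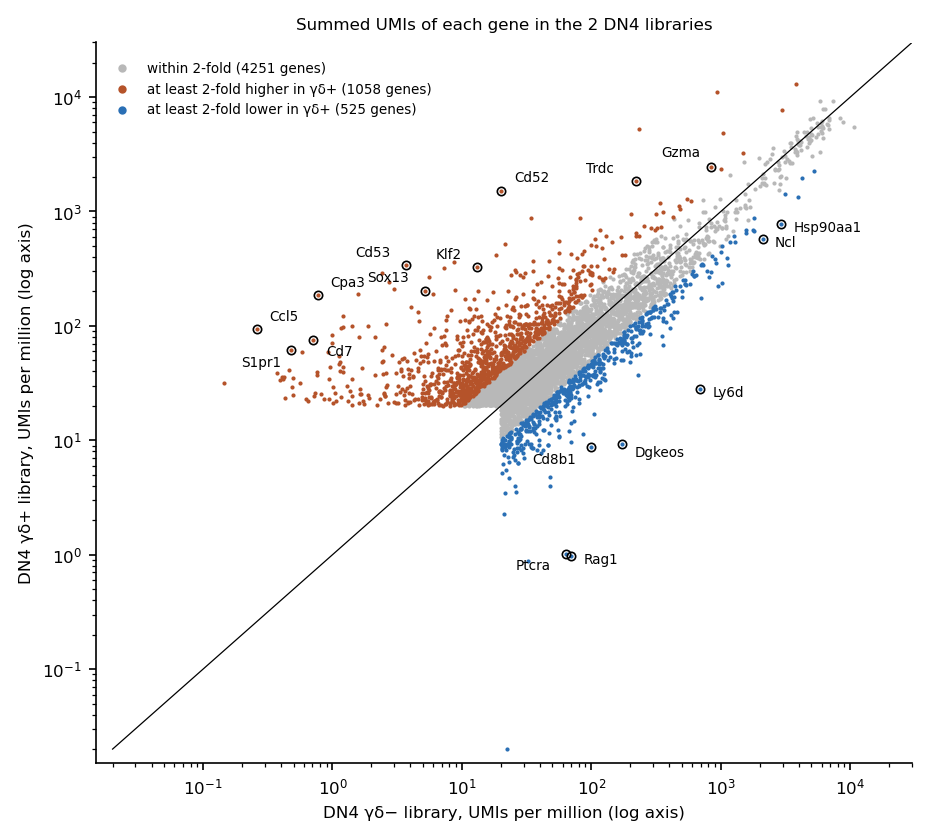
Each point is 1 of 5834 genes, with its CPM in the DN4 γδ− library on the x axis and in the DN4 γδ+ library on the y axis (both log axes, the line marks equality). Genes at least 2-fold higher in DN4 γδ+ (1058) are brown, those at least 2-fold lower (525) are blue, and the rest are grey. Pth, at 0 in DN4 γδ+, is drawn at 0.02. The brown cloud reaches farther from the line than the blue one.

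The TCR genes separated the libraries along the sort. Trdc, the constant gene of the TCRδ chain (mm10 chromosome 14, 54142851 to 54148868, + strand), stood at 1840.4 CPM (1830.2 to 1850.5) in DN4 γδ+ and at 222 CPM (220.3 to 224.1) in DN4 γδ−, a log2 ratio of 3.05 (3.04 to 3.06). With every barcode thinned to 2000 UMIs, 94.5% of 7340 γδ+ barcodes and 32.9% of 11982 γδ− barcodes held a Trdc UMI, against 24.2% and 15.2% of the B-like barcodes of the same libraries. The thymocytes of DN4 γδ− thus held a Trdc UMI more often than the spiked B cells, which do not express it and show the free RNA of the library. The constant genes of the TCRγ chain followed. Tcrg-C4 stood at 437 and 56.7 CPM in γδ+ and γδ− (log2 ratio 2.95), Tcrg-C1 at 427 and 70.1 CPM (2.61), and Tcrg-C2 at 543 and 144 CPM (1.91). These 3 genes share sequence, and how reads that fit more than 1 of them were counted was not examined. In DN3a, before either selection, Trdc was at 315 CPM, and it was at 202 CPM in DN3b γδ− and at 1015 CPM in DN3b γδ+, so the γδ− cells of both stages lay below DN3a and the γδ+ cells above it.

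At 4000 UMIs per barcode, 96.5% (96.0 to 96.9) of 6897 γδ+ barcodes and 10.7% (10.1 to 11.2) of 11740 γδ− barcodes held at least 5 UMIs of the 4 γδ constant genes. The populations therefore overlapped little. The αβ chains were present on both sides. Trbc1 stood at 2728 CPM in DN4 γδ+ and at 1504 CPM in DN4 γδ− (log2 ratio 0.86), and Trbc2 at 3151 and 2465 CPM (0.35). Trac, the TCRα constant gene downstream of the δ locus, was at 77.3 and 15.9 CPM (2.28). Its ratio was 0.97 among G1 barcodes, within 2-fold, and 2.02 among S or G2M barcodes. The direction of the Trbc genes depends on the scale, since in UMIs per barcode their log2 ratios were -0.26 (Trbc1) and -0.76 (Trbc2), and Trbc2 was at -0.01 with median-of-ratios scaling.

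**Figure D2:**
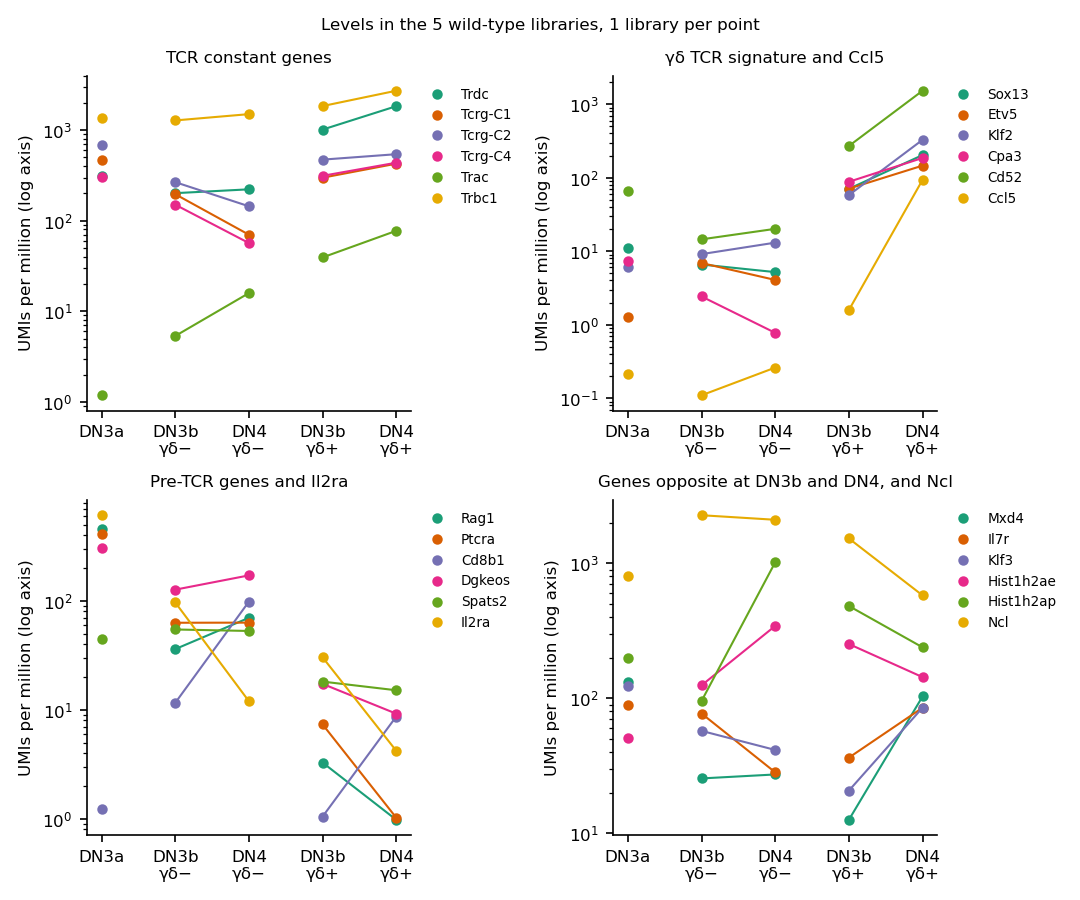
CPM (log axis) of 24 genes in the 5 WT libraries (x axis), 1 point per gene and library, with lines joining DN3b and DN4 of the same γδ class. The panels hold TCR constant genes, signature genes with Ccl5, pre-TCR genes with Il2ra, and genes of opposite direction at DN3b and DN4 with Ncl. Rag1 and Ptcra are highest in DN3a and lowest in DN4 γδ+, whereas Sox13, Etv5, Klf2 and Cpa3 are highest in DN4 γδ+.

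Some genes of the pre-TCR and of V(D)J recombination were among the lowest of the contrast. Rag1, a subunit of the recombinase (chromosome 2, 101638282 to 101649501), had 67 UMIs in DN4 γδ+ (0.980 CPM) and 16914 in DN4 γδ− (70.0 CPM), so it was 71.5-fold lower (log2 ratio -6.16, -6.53 to -5.81). Ptcra, which encodes pTα (chromosome 17, 46755663 to 46763712), had 70 UMIs (1.02 CPM) against 15269 (63.2 CPM), a log2 ratio of -5.95 (-6.31 to -5.61). In DN3a, Rag1 stood at 456 CPM and Ptcra at 412 CPM. In DN3b γδ− they were at 36.1 and 63.1 CPM and in DN3b γδ+ at 3.28 and 7.36 CPM. From DN3b to DN4, Rag1 was thus higher and Ptcra alike among γδ− cells, and both were lower among γδ+ cells. Rag2, the partner of Rag1 in the recombinase, stood at 0.336 and 15.9 CPM in γδ+ and γδ− (-5.56). Dntt, the polymerase that adds bases at V(D)J joints, was less far apart, at 177 and 699 CPM (-1.98).

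Rag2 was under the 20 CPM limit. Of 6 measured recombination genes, 3 (50%, against 9.0% of all genes) were at least 2-fold lower in DN4 γδ+ and none was higher. Beside Rag1 and Dntt this was Xrcc6, a subunit of the Ku end-binding complex, at 50.8 and 177 CPM (-1.80), while its partner Xrcc5 was at 23.8 and 34.8 CPM (-0.55). Xrcc4 and Lig4, the ligation factors, stood 0.33 and 0.26 higher on the log2 scale. The 5 pre-TCR genes used here are those that the study's text names. They are not its full list, and the study chose them as higher in DN3b γδ− and DN4 γδ− than in DN3b γδ+ cells. DN4 γδ− was thus on the selecting side, so the list is not independent evidence of its direction. Each of the 5 was lower, with a median log2 ratio of -4.22. Besides Rag1 and Ptcra they were Dgkeos, an antisense transcript at 9.23 and 172 CPM (-4.22), Cd8b1 (-3.50) and Spats2 at 15.1 and 53.0 CPM (-1.81). Cd8b1, the CD8β chain, stood at 8.69 CPM in DN4 γδ+ and at 98.6 CPM in DN4 γδ−, where DN3b γδ− had 11.6 CPM. Cd8a was at 1.70 and 7.92 CPM and Cd4 at 1.14 and 0.658 CPM. A UMI of Cd8a or Cd8b1 was seen in 2.84% (2.46 to 3.26) of γδ+ and in 30.3% (29.4 to 31.1) of γδ− barcodes at 4000 UMIs, and a UMI of Ptcra in 0.290% and 22%.

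The genes of the sort gates followed in part. Cd24a was at 112 CPM in DN4 γδ+ and 248 CPM in DN4 γδ− (log2 ratio -1.14). Tfrc, which encodes the CD71 of the γδ− gate, differed little, at 56.4 and 69.1 CPM (-0.29). Il2ra (CD25) was low in both, at 4.21 and 12.0 CPM, and Cd44 was at 12.5 and 0.373 CPM. Kit, the stem cell factor receptor, stood at 17.5 and 3.61 CPM. The Tfrc value depends on the scale, at -0.63 with TMM and -1.41 in UMIs per barcode.

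The γδ TCR signature was higher in DN4 γδ+ throughout. All 14 genes of this list were at least 2-fold higher in DN4 γδ+, with a median log2 ratio of 4.62 against 0.10 over all genes and 18.1% of all genes called higher. They are the members that the study's text names and not its whole signature, which it drew from the DN3b libraries, so the list is not independent evidence of its direction. Cpa3, a carboxypeptidase, led with 186 and 0.774 CPM (7.91, 7.70 to 8.12). It was followed by the surface proteins Cd53 at 340.4 and 3.67 CPM (6.54) and Cd52 at 1525 and 20.1 CPM (6.24). The transcription factor genes were Sox13 at 203 and 5.19 CPM (5.29), Etv5 at 146 and 4.06 CPM (5.17) and Klf2 at 327 and 13.1 CPM (4.65). Inhibitory and adhesion molecules made up much of the rest, with Pdcd1 (PD-1) at 170.4 and 10.5 CPM (4.02), Clec2d at 114 and 10.6 CPM (3.42), Itgb2 at 108 and 11.3 CPM (3.25) and Cd5 at 81.8 and 9.19 CPM (3.15). Tes (4.99), the kinase gene Blk (4.59), Sesn3 (2.80) and Cd6 (1.83) completed the list.

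Most of the signature was higher in DN4 γδ+ than in DN3b γδ+ too. Klf2 went from 58.0 CPM in DN3b γδ+ to 327 CPM, Cd52 from 270.1 to 1525 CPM and Sox13 from 70.6 to 203 CPM. Cd5 and Cd6 were the members with lower values at DN4, from 129.7 to 81.8 CPM and from 69.5 to 56.6 CPM. At 4000 UMIs, 95.9% (95.4 to 96.4) of γδ+ barcodes and 1.81% (1.58 to 2.07) of γδ− barcodes held at least 5 signature UMIs. Of those 213 γδ− barcodes, 56.8% (49.9 to 63.6) also held at least 5 UMIs of the γδ constant genes.

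**Figure D3:**
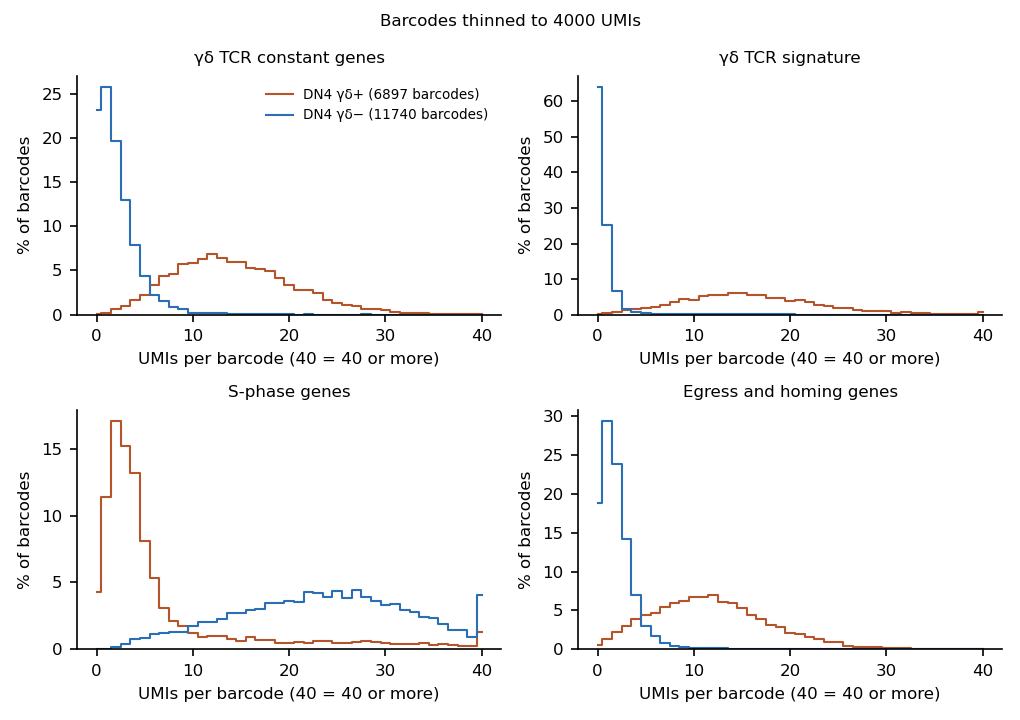
Share of barcodes (y axis, percent) with each number of UMIs (x axis, values of 40 and over in the last bin) for 4 sums of genes, after thinning to 4000 UMIs, in 6897 barcodes of DN4 γδ+ (brown) and 11740 of DN4 γδ− (blue). The γδ TCR constant genes, the γδ TCR signature and the egress and homing genes lie to the right in DN4 γδ+, and the S-phase genes lie to the right in DN4 γδ−.

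Of 25 listed genes that report the strength of TCR signalling, 17 were measured. In DN4 γδ+ 16 of these were higher (94.1%, against 18.1% of all genes), with a median log2 ratio of 2.57. Tnfrsf9, which encodes 4-1BB, stood at 34.8 and 0.497 CPM (6.13, 5.87 to 6.41). Spry2, a feedback inhibitor of the ERK pathway, was at 26.0 and 0.729 CPM (5.16). Dusp5, an ERK phosphatase (2.15), and Id3, an inhibitor of E proteins, at 477 and 121 CPM (1.98), were among the smallest differences of the list. Myb, at 212 and 191 CPM (0.15), was the single member within 2-fold. Egr1 (37.6 and 6.63 CPM, 2.50) and Nr4a1 (98.6 and 16.6 CPM, 2.57), early targets of TCR signals, lay near the median of the list and were chosen for naming after their values were seen. Among G1 barcodes the list median was 1.53, and 15 genes were past 2-fold. There Tnfrsf9 was at 1.67, Spry2 at 1.52, Nr4a1 at 1.46 and Egr1 at 0.21, within 2-fold.

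The machinery that passes on the TCR signal was also higher, for 18 of 28 measured genes (64.3%, against 18.1% of all genes). None was at least 2-fold lower, and the median was 1.40. Blk and Txk, kinases of the Src and Tec families, led with Blk at 111 and 4.62 CPM (4.59) and Txk at 139 and 8.23 CPM (4.08). Prkcq, protein kinase C θ, was at 141 and 12.7 CPM (3.47), and Rasgrp1, an activator of Ras, at 369 and 47.5 CPM (2.96). The lowest 4 lay close to 0, namely Nck1 (0.17), Lat at 396 and 357 CPM (0.15), Themis (0.09) and Lck at 348 and 336 CPM (0.05). Lck and Lat, the first kinase and the adaptor of the pathway, therefore stood at like shares of the UMIs on both sides, although TMM scaling would put each 0.33 lower.

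The 15 genes with the highest log2 ratio were of several kinds. The ranking took genes that reached 20 CPM in either library and 10 UMIs in both, without mitochondrial, ribosomal-protein and receptor segment genes and without genes whose CPM was higher in the B-like barcodes than in the thymocytes of both libraries. The last condition left out S1pr1, Gimap3, Gimap4, Samhd1 and Cd53, whose ratios would have placed them among the 15. Ccl5, a chemokine of cytotoxic cells (chromosome 11, 83525778 to 83530518), had 6389 UMIs in DN4 γδ+ (93.4 CPM) and 63 in DN4 γδ− (0.261 CPM), 358-fold higher (log2 ratio 8.48, 8.13 to 8.87). The size depends on which barcodes enter, as Ccl5 was at 6.89 without the limit on B cell genes, where the B-like barcodes of DN4 γδ− held 130 Ccl5 UMIs, and at 3.68 among G1 barcodes. After it and Cpa3 came 2 antisense transcripts, Gm14718 (7.77) and B630019A10Rik (6.91), of which the second lies beside St6gal1 (6.34), a sialyltransferase gene that is also among the 15. Igfbp4, a binding protein of insulin-like growth factors, stood at 289 and 2.41 CPM (6.91), and Cd7, a surface protein of T and NK cells, at 75.9 and 0.712 CPM (6.74). Maf, a transcription factor of γδ17 cells, stood at 243 and 2.73 CPM (6.48). The rest were the integrin chain Itgb3 (6.48), the ATP receptor P2rx7 (6.47), Sox5 (6.43), the chemokine Xcl1 (6.41), the cytokine receptor chain Il2rb (6.41), the adhesion receptor Cd226 (6.35) and the G protein regulator Rgs1 (6.35). Among G1 barcodes Igfbp4 was at 2.70, Il2rb at 2.51 and Xcl1 at 1.97.

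These genes differed in how many γδ+ barcodes carried them. At 4000 UMIs, Maf was seen in 3117 of 6897 γδ+ barcodes, Igfbp4 in 3354 and Cpa3 in 2329. Ccl5 was seen in 461, and the 1% of barcodes with the most Ccl5 held 54.7% of its UMIs. For Xcl1 that share was 69.6% and for Gm14718 41%, while it was 11.1% for Cpa3 and 7.37% for Maf. Ccl5 and Xcl1 therefore owed their summed values to few barcodes, and Maf, Igfbp4 and Cpa3 to many. Antisense transcripts and their partners cannot be told apart where a counting setting ignores strand, and that setting was not stated in the sources used here.

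At the other end, the 15 lowest genes by the same conditions, which left out Rag2 for its level and Ly6d for its level in B-like barcodes, included recombination, lipid and polyamine genes. Nrp1, the neuropilin 1 receptor, came after Rag1 and Ptcra in this ranking, at 0.878 and 32.5 CPM (log2 ratio -5.21). Dgkeos was followed by its neighbour Gm525 (-3.60) on chromosome 11. Idi1, a sterol pathway isomerase, was at 16.9 and 105 CPM (-2.64). Srm, spermidine synthase, stood at 37.3 and 231 CPM (-2.63). Also on this side were Cd8b1, Prss57 (-3.32), Sapcd1 (-3.23), Ccdc18 (-2.92), Dnph1 (-2.87), Tmem238 (-2.69) and Angptl4 (-2.62).

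Genes of both effector programmes were higher in the γδ+ library. Of the γδ17 genes 9 of 22 in the files reached 20 CPM in a library, and of the γδ1 and NK-receptor genes 10 of 28. A gene that reached this level only where it is high had to differ, so the counts of those measured are a description. Over all listed members the summed level was 1870 CPM in DN4 γδ+ and 322 CPM in DN4 γδ− for the γδ17 genes, and 3926 and 977 CPM for the γδ1 and NK-receptor genes. All 9 measured γδ17 genes were at least 2-fold higher, with a median log2 ratio of 4.53, with Maf at the upper end and Sox4, at 753 and 253 CPM (1.57), near the lower end. Sox13, Etv5 and Blk are on this list and on the signature list. Cd163l1 (3.68) and Actn2 (2.72) lay between. All 10 measured γδ1 and NK-receptor genes were higher as well, with a median of 5.09. Ikzf2 (Helios) at 689.9 and 116 CPM (2.57) and Gzma (granzyme A) at 2442 and 845 CPM (1.53) had the smallest ratios. Gzma alone thus gave most of the list's 3926 and 977 CPM. The paper placed Gzma in a cluster with Sox13, Maf and Blk, apart from its γδ1 branch, so the sum does not report that branch alone. Fcer1g, a signalling chain of NK receptors, was at 27.2 and 1.37 CPM (4.31), and Ccl4 at 21.4 and 1.01 CPM (4.41). Among G1 barcodes alone the ratio of Fcer1g was -0.35. At 2000 UMIs a Gzma UMI was held by 60.5% of γδ+ and 69.5% of γδ− barcodes, which goes against the CPM, so no order is read from these shares. Beside the γδ1 list stand the NK markers, of which 83 γδ+ and 4 γδ− barcodes held at least 5 UMIs with Ncr1 at 0 in both libraries.

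Per barcode, the effector lists were counted by their UMIs. At 4000 UMIs, 80.0% held at least 3 UMIs of the γδ17 genes, 93.8% at least 3 of the γδ1 and NK-receptor genes, and 75.2% at least 3 of each. In DN4 γδ− these shares were 16.3%, 59.9% and 11.1%, so 3 UMIs of the γδ1 list do not set γδ+ barcodes apart. Gzma and Ikzf2 gave most of the UMIs of that list in both libraries, so the shares do not show that a barcode held both programmes. Single genes were more divided, and barcodes with Ccl5 held Sox13 and Cpa3 less often than those without. The genes of this comparison were chosen after their values were seen, and no test is given. Among 289 barcodes with at least 2 Ccl5 UMIs, 214 held Il2rb, 118 Eomes (a T-box factor of the γδ1 branch), 88 the NK receptor gene Klrd1, 169 Cd160 and 262 Nkg7. Of the 6436 barcodes without Ccl5, 16.2% held Il2rb, 0.948% Eomes, 1.24% Klrd1, 14.5% Cd160 and 60.9% Nkg7, which was thus common on both sides. Conversely, Sox13 was seen in 29 of the 289 (10.0%) and in 47.0% of barcodes without Ccl5, and Cpa3 in 20 (6.92%) against 35.1%. Gzma, of the γδ1 list, was held by 41.9% of the Ccl5 carriers and 72.1% of those without. Barcodes called S or G2M made up 5.88% of the Ccl5 carriers and 21.0% of the others.

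Barcodes with Cpa3 held Sox13 and Maf more often. Of 1364 barcodes with at least 2 Cpa3 UMIs, 975 held Sox13 (71.5%, against 35.3% of those without Cpa3), 935 held Maf (68.5% against 35.9%) and 94 held S1pr1 (6.89% against 25.2%). Gzma was held by 86.5% of them against 64.1%. S1pr1 itself, the receptor by which thymocytes leave the thymus, was seen in 1361 barcodes, of which 1131 held Klf2, the factor that induces it (83.1%, against 49.7% of the others), and 287 held Sox13 (21.1% against 51.1%). Zbtb16, which encodes PLZF, was in 158 barcodes, of which 62 were called S or G2M (39.2% against 19.8%). Klf2 was held by 46.0% of the Cpa3 carriers and 60.6% of the barcodes without Cpa3.

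Of 20 listed genes of exit from the thymus and homing, 15 were measured. Of these 12 were higher (80%, against 18.1% of all genes), with a median log2 ratio of 3.25. S1pr1 stood at 61.5 and 0.480 CPM (7.0, 6.73 to 7.28) and Ccr7, a receptor for lymph node chemokines, at 40.6 and 1.13 CPM (5.16). The integrin chains Itgae at 24.9 and 0.497 CPM (5.65) and Itgb7 at 79.5 and 1.60 CPM (5.64), which pair to bind E-cadherin, were both high. Selplg was nearer (1.22), and Cxcr4 (0.39), Itga4 (0.22) and Itgb1 at 47.3 and 62.9 CPM (-0.41) were within 2-fold. At DN3b the same list had a median of 1.25, and S1pr1 was at 1.08 CPM in DN3b γδ+ and 0.0414 CPM in DN3b γδ−. At least 5 UMIs of the list were held by 93.3% of γδ+ barcodes called G1 and 72.9% of those called S or G2M.

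The Gimap GTPases, which sustain lymphocyte survival, were all 8 higher (100%, against 18.1% of all genes) with a median of 3.79. Gimap3 was at 38.5 and 0.373 CPM (6.69), Gimap4 at 123 and 1.20 CPM (6.68) and Gimap9, the nearest to 0, at 176 and 67.7 CPM (1.38). Among BCL2 family genes Bcl2 stood out at 179 and 26.3 CPM (2.77) and Mcl1 was at 229.9 and 97.5 CPM (1.24), both inhibitors of apoptosis. Bid, which promotes it, was at 9.01 and 45.9 CPM (-2.35), and the other 4 measured members were within 2-fold. Of 12 listed S100 family genes 6 were measured and 5 were higher (83.3%, against 18.1%), led by the calcium-binding S100a4 at 210.2 and 3.0 CPM (6.13).

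Of 23 listed cytokine receptor chains, 11 were measured and 9 of these were higher (81.8%, against 18.1% of all genes), with a median of 1.66. Il2rb led at 84.0 and 0.989 CPM (6.41) and the TGF-β receptor chain Tgfbr2 stood at 57.5 and 4.28 CPM (3.75). The common γ chain Il2rg was at 180.2 and 42.9 CPM (2.07) and Ifngr1 at 279.8 and 102 CPM (1.46). Tgfbr1 differed by 0.04. Of 23 quiescence and FoxO genes, 19 were higher (median 1.54), with Klf2, Slfn2 at 123 and 12.5 CPM (3.30), the antiproliferative Btg1 at 554 and 56.4 CPM (3.30) and Foxo1 at 70.2 and 7.39 CPM (3.25) at the top. Cdkn2c, a kinase inhibitor, differed by 0.22. The 19 higher quiescence genes were 82.6% of those measured, against 18.1% of all genes.

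Of 30 T-lineage transcription factor genes, 17 (56.7%, against 18.1% of all genes) were higher in DN4 γδ+ and none was at least 2-fold lower. Tox2 stood at 79.9 and 2.13 CPM (5.23), Bach2 at 24.2 and 1.42 CPM (4.09) and Runx3, a factor of cytotoxic lineages, at 143 and 11.4 CPM (3.65). The members nearest to the γδ− side were Satb1, a chromatin organizer, at 165 and 297 CPM (-0.85), Tcf7 (TCF1) at 543 and 678 CPM (-0.32), Gfi1 (-0.21) and Runx1 (-0.19). Notch genes were divided. Notch1 itself was at 40.2 and 117 CPM (-1.54) and its target Myc at 19.4 and 71.7 CPM (-1.88), whereas Gata3 was at 300.7 and 84.3 CPM (1.83) and Lfng, a glycosyltransferase that modifies Notch, at 20.7 and 1.76 CPM (3.55). Hes1, a Notch target at 562 CPM in DN3a, was at 46.7 and 55.0 CPM in the 2 DN4 libraries (-0.23).

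Most genes of antigen presentation and interferon response were higher in DN4 γδ+. Of 14 MHC class I genes 10 passed 2-fold (median 1.80), with the class I heavy chains H2-Q7 at 122 and 14.2 CPM (3.11), H2-T23 (2.83), H2-D1 at 570.2 and 106 CPM (2.43) and H2-K1 at 502 and 108 CPM (2.22). Tap2 (-0.16) and the immunoproteasome subunits Psmb8 (0.12), Psmb9 (0.32) and Psmb10 (0.43) did not. Of 21 interferon-stimulated genes 18 were higher (median 2.12). The higher share was 71.4% of the MHC class I genes and 85.7% of the interferon-stimulated genes, against 18.1% of all genes. Samhd1, a nucleotide hydrolase, stood at 58.7 and 0.580 CPM (6.66), Ifi206, a DNA-sensor family gene, at 29.5 and 1.01 CPM (4.87), Zbp1 at 54.5 and 5.09 CPM (3.42) and Usp18 at 43.1 and 4.58 CPM (3.23). Bst2 (tetherin) was on the opposite side, at 108 and 198 CPM (-0.88). At DN3b the median of the interferon list was -0.08, and within G1 barcodes of DN4 it was 0.81. There 4 of the 14 MHC class I genes and 8 of the 21 interferon-stimulated genes were past 2-fold, and 1 interferon-stimulated gene was lower, where 9.98% of the 5834 genes were higher and 7.99% lower.

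The promoter of Ifi206 is shown because it holds the letters that interferon-activated factors bind. Motifs were searched on both strands of RefSeq promoters (GRCm38.p6, 250 bases before to 50 after the start), were chosen after the values were seen, and a match is a description only. The interferon-type letters (GAAA, any 2 bases, GAAA) were found for 8 of 15 interferon-stimulated genes with a promoter entry, and for 3.99% of 27025 genes with an entry. Matches of 2 different motif kinds shared bases in few windows, at most 16 of 32851. Capitals mark the match, which starts 40 bases before the start of the gene at chr1:173491269-173491568 on the − strand.

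Ifi206: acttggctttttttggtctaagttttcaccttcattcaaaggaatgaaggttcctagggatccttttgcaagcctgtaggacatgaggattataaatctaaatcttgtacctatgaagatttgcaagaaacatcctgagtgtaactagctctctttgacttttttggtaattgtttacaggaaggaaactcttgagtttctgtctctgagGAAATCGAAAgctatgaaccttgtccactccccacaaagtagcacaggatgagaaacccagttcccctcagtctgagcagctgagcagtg

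Genes of proliferation were higher on the γδ− side. Phases were called from S and G2M genes at 4000 UMIs per barcode, and 20.2% (19.3 to 21.2) of DN4 γδ+ barcodes were called S or G2M against 94.7% (94.3 to 95.1) of DN4 γδ−. The calls are relative to the 5 WT libraries scored together, where S or G2M took 8.18% of DN3a, 96.0% of DN3b γδ− and 91.2% of DN3b γδ+. The UMIs of these genes had to move with the calls, which were made from the same genes and counts. The median γδ+ barcode held 4 UMIs of S-phase genes and 9 of G2M genes, and the median γδ− barcode 24 and 36. The CD71 gate, set on the γδ− side alone, and the cell lineage cannot be told apart in these values.

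Of 42 S-phase genes measured, 33 (78.6%, against 9.0% of all genes) were at least 2-fold lower in DN4 γδ+. None was higher, and the median log2 ratio was -1.23. Cdca7, a chromatin factor, stood at 68.2 and 359 CPM (-2.40), the cyclin gene Ccne2 at 8.25 and 38.0 CPM (-2.20), the exonuclease gene Exo1 at 8.61 and 35.5 CPM (-2.04) and the helicase gene Hells at 57.6 and 202 CPM (-1.81). Among the members nearest to 0 were Casp8ap2 (-0.49), Ubr7 (-0.61) and Rfc2 (-0.63). G2M genes were less far apart in the sums, with 8 of 48 lower (16.7%, against 9.0% of all genes) and a median of -0.84. With TMM factors that median was -1.17, past 2-fold. Aurkb, a mitotic kinase, was at 35.7 and 91.3 CPM (-1.35) and Anln, a protein of the cleavage furrow, at 8.42 and 20.2 CPM (-1.26), while Jpt1 (0.11), Kif23 (0.04), Cenpa (-0.00) and Lbr (-0.00) had like CPM in both. Sums weight barcodes by their UMIs, so deeper barcodes count for more. Thinned to 4000 UMIs each, the median of the S and G2M genes together was -1.56 in place of -0.96.

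The promoters of Cdca7 and Anln are shown as the lowest members of the S and G2M lists whose single RefSeq promoter holds the motif of its phase. An E2F-type site (TTTCCCGC, TTTGGCGC, TTTCGCGC or TTTGCCGC) was found for 12 of 30 S-phase genes with an entry, against 2.61% of all 27025 genes and 5.88% of the genes with an entry at 20 CPM. The CHR-type letters TTTGAA were found for 32 of 42 G2M genes, against 20.2% and 14.8%. Capitals mark the match, which lies 71 bases before the start in Cdca7 (chr2:72475969-72476268, + strand) and 21 and 28 bases after the start in Anln (chr9:22389157-22389456, − strand).

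Cdca7: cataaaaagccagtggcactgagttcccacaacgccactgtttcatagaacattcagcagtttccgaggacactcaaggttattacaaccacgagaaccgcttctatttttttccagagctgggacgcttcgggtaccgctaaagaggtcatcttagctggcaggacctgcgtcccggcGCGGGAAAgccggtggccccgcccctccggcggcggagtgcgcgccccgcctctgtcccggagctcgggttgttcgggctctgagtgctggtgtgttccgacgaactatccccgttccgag
Anln: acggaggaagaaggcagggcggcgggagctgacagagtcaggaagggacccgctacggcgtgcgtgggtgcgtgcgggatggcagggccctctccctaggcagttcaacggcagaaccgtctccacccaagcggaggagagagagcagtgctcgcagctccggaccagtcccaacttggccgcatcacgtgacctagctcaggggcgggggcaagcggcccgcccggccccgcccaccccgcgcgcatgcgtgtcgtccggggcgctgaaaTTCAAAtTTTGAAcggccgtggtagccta

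Cyclin and histone genes were divided. Of 12 G1 cyclin, kinase and E2F genes, 6 were lower, with E2f8 (-1.39), E2f2 (-1.25) and Ccne1 (-1.12) beside Ccne2. Ccne1 was at 0.03 among S or G2M barcodes. Ccnd2, cyclin D2, went the opposite way, at 262 and 54.9 CPM (2.25), and Ccnd3 was at 178 and 222 CPM (-0.31). Of 18 replication-dependent histone genes 10 were lower, led by Hist1h2ap at 239 and 1019 CPM (-2.09) and Hist1h1a (-1.57). Among S or G2M barcodes 0 genes of either list were lower, with medians of -0.07 for the cyclin list and -0.01 for the histones. The linker histone gene Hist1h1c was at 68.0 and 44.9 CPM (0.60). Most histone transcripts carry no poly(A) tail, on which this assay primes.

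Growth genes accompanied the cycle genes. Of 35 ribosome biogenesis genes 30 were lower in DN4 γδ+ and none was higher, with a median of -1.44. Gnl3 (nucleostemin) stood at 56.7 and 239 CPM (-2.07), Wdr12 at 27.6 and 116 CPM (-2.07), Nolc1 at 55.2 and 223 CPM (-2.01) and Ncl (nucleolin) at 579 and 2103 CPM (-1.86). Ribosomal-protein genes did not share this, with 1 of 81 lower and a median of -0.19. Of 25 nucleotide synthesis genes 19 were lower (median -1.33), led by Shmt1, a one-carbon enzyme, at 10.8 and 56.4 CPM (-2.38), and 1 was higher, Ctps2 at 39.7 and 14.7 CPM (1.43). Of 17 sterol and fatty-acid genes 9 were lower (median -1.01), with Idi1 and Sqle (-1.95) near the bottom, and of 16 chaperone genes 10 were, among them Hspd1 at 224 and 959 CPM (-2.10) and Hsp90aa1 at 784.5 and 2922 CPM (-1.90). Hspa5, an endoplasmic reticulum chaperone, was at 395 and 233 CPM (0.76).

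Central carbon and protein turnover genes differed less. In γδ+ and γδ− the thymocyte sums were 2883 and 4046 CPM for glycolysis, 8830 and 13280 CPM for oxidative phosphorylation, and 5055 and 6812 CPM for the proteasome. The B-like barcodes moved alike, with sums of 1412 and 1959, 5284 and 7988, and 3355.5 and 4400 CPM in that order. The values of these 3 lists are therefore not read as differences between the thymocytes. Of 13 glycolysis genes 2 were lower, Slc16a1 (a lactate transporter) at 14.8 and 73.6 CPM (-2.31) and Tpi1 (-1.49), and Ldha was at 383 and 694 CPM (-0.86). Of 27 oxidative phosphorylation genes 4 passed 2-fold with a median of -0.54, Atp5g1 being the lowest (-1.37). None of 25 proteasome genes passed, from Psmb1 (0.12) to Psmd1 (-0.85). With TMM factors, which moved every log2 ratio by -0.33, Psmd1 would pass, and the list median was -0.80. Mitochondrially encoded genes had a median of -0.07. With library totals and against 9.0% of all genes, the lower share was 85.7% for ribosome biogenesis, 76.0% for nucleotide synthesis and 0% for the proteasome. It was 52.9% for the sterol and fatty-acid genes, 62.5% for the chaperones, 15.4% for glycolysis and 14.8% for oxidative phosphorylation. Among S or G2M barcodes, where 2.79% of the 5834 genes were lower, 17 of the 35 ribosome biogenesis genes, 3 of the 25 nucleotide synthesis genes, 5 of the 17 sterol and fatty-acid genes and 3 of the 16 chaperone genes were lower.

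The promoter of Nop2, a ribosomal RNA methyltransferase gene at 11.9 and 36.3 CPM (-1.62), is shown as the lowest member of the ribosome biogenesis list whose single promoter holds the E-box CACGTG that MYC proteins bind. The letters were found for 7 of 30 such genes with an entry, 8.09% of all genes and 12.5% of genes at 20 CPM. The share in the list therefore rests on few matches. The match is 60 bases before the start (chr6:125131633-125131932, + strand).

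Nop2: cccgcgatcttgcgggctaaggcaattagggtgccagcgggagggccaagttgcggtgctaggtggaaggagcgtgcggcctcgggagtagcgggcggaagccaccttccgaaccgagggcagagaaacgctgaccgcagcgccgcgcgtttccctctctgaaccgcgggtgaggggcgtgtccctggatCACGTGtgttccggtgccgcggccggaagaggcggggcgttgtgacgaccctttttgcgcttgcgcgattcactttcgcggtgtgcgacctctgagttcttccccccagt

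Within phase calls most groups kept their direction, at other sizes. Among barcodes called G1 in both libraries, 5501 in DN4 γδ+ and 619 in DN4 γδ−, 563 of the 1058 higher genes and 370 of the 525 lower genes were still past 2-fold. Past 2-fold in G1 and also in S or G2M barcodes were 507 and 132. The γδ TCR signature kept 14 of 14 members past 2-fold in either stratum, at medians of 2.69 in G1 and 4.33 in S or G2M, and the pre-TCR genes kept 5 of 5 at -5.66 and -3.58. The G1 barcodes of DN4 γδ− also held UMIs of the signature and of the γδ constant genes. The sum of the signature is not particular to γδ cells. In the B-like barcodes it was 5339 CPM in DN4 γδ+ and 3424 CPM in DN4 γδ−, against 3649 CPM in the DN4 γδ+ thymocytes. Its members differed in this. Cd53 was higher in the B-like barcodes than in the thymocytes. Cpa3 was at 13.8 and 0 CPM in the B-like barcodes of DN4 γδ+ and DN4 γδ−, against 186 CPM in DN4 γδ+ thymocytes. Of those 619 barcodes 18.7% (15.7 to 22) held at least 5 signature UMIs and 29.6% (26.0 to 33.3) at least 5 γδ constant gene UMIs, against 0.872% and 9.62% of the 11121 barcodes called S or G2M. Of the 213 signature-bearing γδ− barcodes 54.5% were called G1, against 5.27% of the library. The S and G2M genes, from which the strata were called, turned from -1.26 in G1 to 0.10 in S or G2M barcodes. Ribosome biogenesis kept -1.08 and -0.99.

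**Figure D4:**
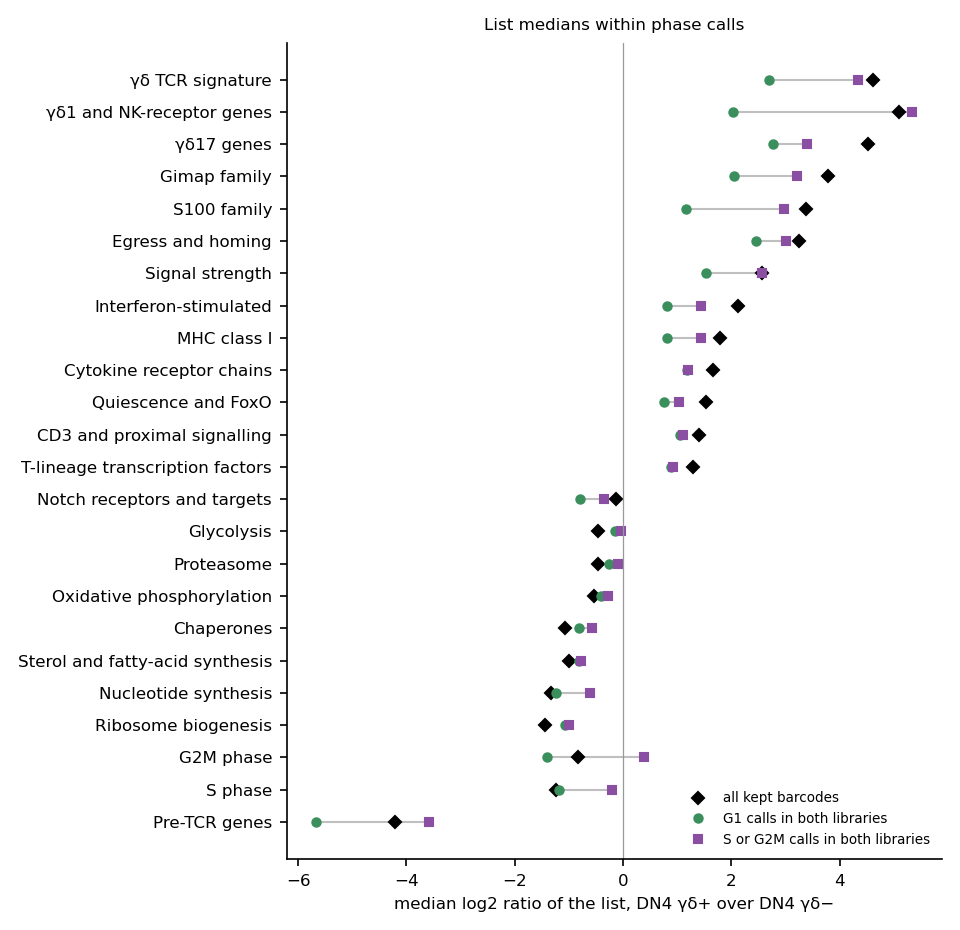
Median log2 ratio of DN4 γδ+ over DN4 γδ− (x axis) of 24 gene lists over all kept barcodes (diamonds), barcodes called G1 in both libraries (circles) and barcodes called S or G2M in both (squares). The γδ TCR signature is at 2.69 in G1 and 4.33 in S or G2M. The G2M list, which is part of the phase calls, is on opposite sides of 0 in the 2 strata, at -1.41 and 0.39.

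Several groups had smaller ratios within G1. Malat1, a nuclear noncoding RNA chosen after its values were seen, was 1.78 higher on the log2 scale over all barcodes and 0.42 in G1. The quiescence list went from a median of 1.54 to 0.75 in G1, MHC class I from 1.80 to 0.81 and the Gimap genes from 3.79 to 2.05. Trdc kept 2.69 in G1 and 2.52 in S or G2M, and Cd8b1 -3.80 and -3.58. The part that the signature-bearing γδ− G1 barcodes had in these medians was not tested.

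Against the earlier stage, the same contrast at DN3b (DN3b γδ+ over DN3b γδ−, other libraries) held fewer calls. Of 5412 genes at 20 CPM or more in 1 DN3b library, 278 (5.14%) were at least 2-fold higher in DN3b γδ+ and 96 (1.77%) lower. Of the 1058 genes higher at DN4, 317 were past 2-fold in the same direction at DN3b, and of the 525 lower genes 43 were. These counts set no minimum level at DN3b, so they are not parts of the 278 and 96. They can include genes with few UMIs there, such as Ccl5 at 1.58 CPM in DN3b γδ+ and 0.109 CPM in DN3b γδ−. The DN3b median was 3.28 for the γδ TCR signature, which was selected on these DN3b libraries, and 2.53 for the signal strength genes, near the 2.57 of DN4, whereas it was 0.78 for the γδ17 genes and -0.43 for ribosome biogenesis. The S and G2M genes were at -0.09 at DN3b, where both libraries cycled. The γδ1 genes had a median of 3.62 and the quiescence list 0.34 at DN3b. All DN3b list medians take the members measured at DN4, without a minimum at DN3b. Ratios over few DN3b UMIs can therefore enter them. Whether a list differed between the stages was not tested.

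At least 2-fold apart in opposite directions at the 2 stages were 6 genes. Il7r, the interleukin-7 receptor chain, was at 77.2 CPM in DN3b γδ− and 36.4 CPM in DN3b γδ+ (log2 ratio -1.09), and at 28.3 CPM in DN4 γδ− and 85.2 CPM in DN4 γδ+ (1.59, 1.54 to 1.64). Mxd4, a MYC antagonist, went from -1.02 to 1.92, reaching 103 CPM in DN4 γδ+, and the zinc-finger gene Klf3 from -1.47 to 1.04. The 3 in the opposite sense were Hist1h2ap (2.34 at DN3b, -2.09 at DN4), Hist1h2ae (1.02 and -1.26) and Gm10076 (1.54 and -1.04). In the spiked B-like barcodes all 3 were likewise lower in the γδ+ library. Gm10076 was at 320 CPM against 591 CPM in DN4 γδ−. Hist1h2ap was at 36.9 and 248 CPM (24 and 164 UMIs) and Hist1h2ae at 23.1 and 129 CPM (15 and 85 UMIs). The DN4 ratios of these 3 genes are therefore not read as differences between the thymocytes. In DN3a, Mxd4 stood at 131 CPM, Il7r at 89.6 CPM and Klf3 at 124 CPM, each nearer to DN4 γδ+ than to DN4 γδ−. Within G1 barcodes Mxd4 differed by 0.05, Klf3 by 0.37 and Il7r by 1.36. Among S or G2M barcodes Klf3 differed by 0.16, Mxd4 by 0.74 and Hist1h2ae by -0.04, so Klf3 and Mxd4 were within 2-fold in both strata. With TMM factors the DN4 ratio of Klf3 was 0.71, within 2-fold. In UMIs per barcode Mxd4 was at 0.80, Il7r at 0.47 and Klf3 at -0.08, so none of the 3 was past 2-fold. Hist1h2ap, Hist1h2ae and Gm10076 stayed past 2-fold on both scales. They were at -3.06, -1.86 and -1.11 within G1 barcodes. In S or G2M barcodes Hist1h2ap was at -0.83 and Gm10076 at -0.96, so these 3 were all within 2-fold there.

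The amount of RNA per barcode differed between the groups as well. The mean kept barcode held 9298 UMIs in DN4 γδ+ and 20152 in DN4 γδ−, a ratio of 2.17, so that a gene with equal CPM had fewer UMIs per γδ+ barcode by 1.12 on the log2 scale. On that scale 345 genes were at least 2-fold higher and 2966 lower. The γδ TCR signature kept a median of 3.50 and the signal strength genes 1.45, the CD3 and proximal signalling genes 0.28, and the S and G2M genes -2.08. Lck and Lat, at like CPM, were lower per γδ+ barcode on this scale.

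Some abundant transcripts outside the rule for named genes were picked after their values were seen. The actin-binding thymosin genes Tmsb4x (log2 ratio 3.57) and Tmsb10 (4.50) were far higher in DN4 γδ+, Tmsb10 at 5312 and 234 CPM, and Actb was 1.38 higher. Pth, the parathyroid hormone gene, had 5343 UMIs in DN4 γδ− and 0 in DN4 γδ+. At 4000 UMIs per barcode 1442 of its 1466 UMIs (98.4%) were in 1 γδ− barcode, so its value describes that barcode. The sex-linked genes, from thymi of both sexes, were Xist at 839.7 and 554 CPM (0.60), Ddx3y (0.95) and Eif2s3y at 38.9 and 16.7 CPM (1.22). Of these Eif2s3y alone passed 2-fold, and the median of the 3 was -0.16 in UMIs per barcode.

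**Figure D5:**
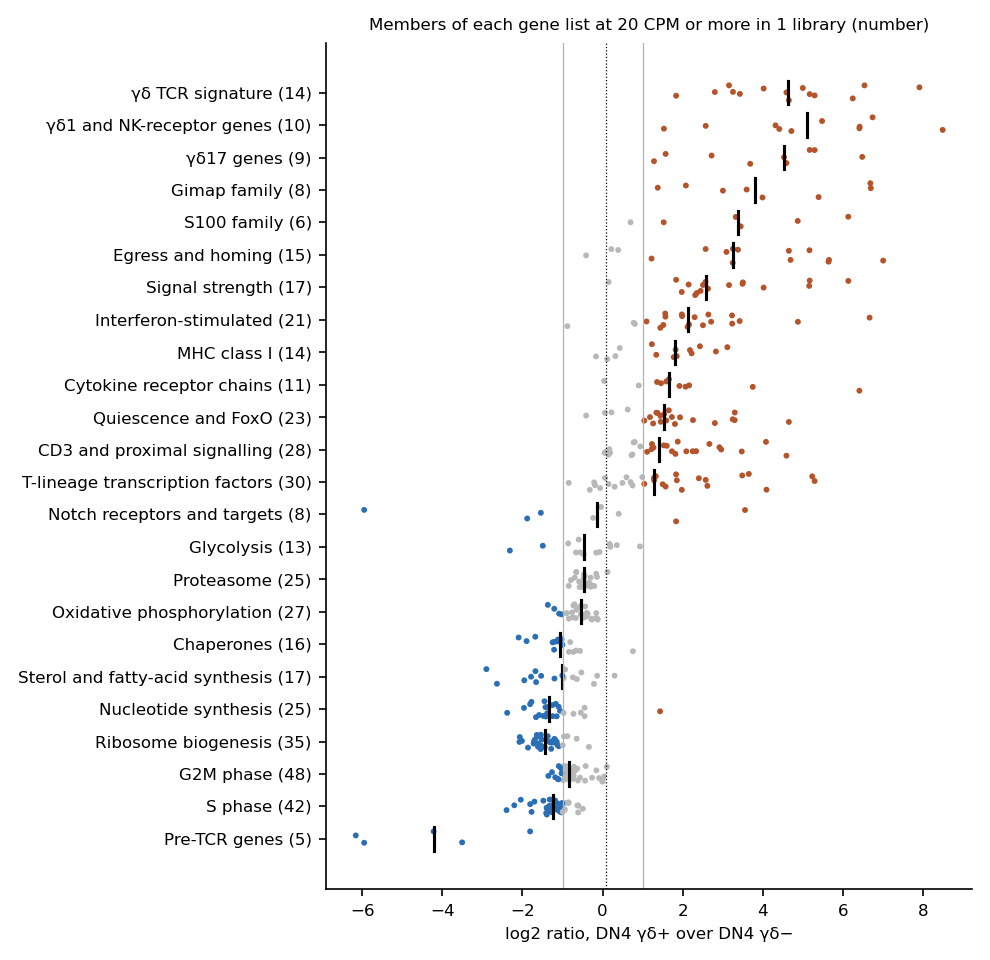
Log2 ratio of DN4 γδ+ over DN4 γδ− (x axis) for each member of 24 gene lists at 20 CPM or more in 1 library. Points are genes (brown at least 2-fold higher, blue at least 2-fold lower), black bars are list medians, and the dotted line is the median of all genes (0.10). The γδ TCR signature (4.62) and the γδ1 genes (5.09) lie farthest right and the pre-TCR genes (-4.22) farthest left. The γδ1 median covers only the 10 of 28 listed genes that reached 20 CPM, and it was 2.03 in G1 barcodes. The signature and pre-TCR lists were chosen by the study on libraries of this series, so these places are descriptions.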

How the data were processed

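The single-cell libraries were made with 10x Genomics 3′ chemistry. The deposited values are UMI counts per gene and barcode, made by the authors with Cell Ranger (5.0.1 per the processing notes, 4.0.0 per the file headers) on mm10 with an edited Trdc sequence as a feature of its own. The notes also name R 3.6.3 and Seurat 3.1.5. Whether counting used strand was not given in the sources used here.

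From these counts, barcodes were filtered as given above and UMIs summed per library, with CPM over the library total. Genes with at least 20 CPM in 1 library entered the counts, and a 2-fold ratio was the call. Poisson, exact binomial (Clopper-Pearson) and conditional binomial intervals at 95% cover counting error only. A floor of 3 counts stood in for a 0. To compare shares, barcodes were thinned to 2000 or 4000 UMIs. Phases were scored in scanpy 1.11.5 on the 5 WT libraries. B-like barcodes had at least 10 B marker UMIs and 2 times more of these than of T markers. Limits of under 10 T marker UMIs and of at least 2 UMIs of the B cell genes used in the filter were added after seeing the data. No doublet caller was run. The limit on B cell genes was the only step against barcodes that held a B cell with a thymocyte, and droplets with more than 1 thymocyte were not marked. The calculation was tested on simulated data. Python 3.11.15, numpy 2.4.6, scipy 1.17.1 and pandas 2.3.3 were used.

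The members and gene lists were chosen with earlier results of these data known. Named were the 15 highest and 15 lowest genes with at least 10 UMIs in each library (without mitochondrial, ribosomal-protein and receptor segment genes and those higher in B-like barcodes), every member of the lists of TCR chains, co-receptors, sort markers, signature, pre-TCR, recombination and sex-linked genes, up to 4 members at each end of other lists, and up to 8 genes each way opposite at DN3b and DN4. Some genes that this rule names are not reported here. Other genes are marked as chosen after their values were seen. Alternatives were other filters, scalings, weights, phase strata and minimum levels.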

Additional observations from a re-analysis of the deposited data

Results flagged for a closer look

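The following genes were at least 2-fold apart between γδ+ and γδ− libraries at both stages but in opposite directions, and the difference between the stages was not tested, as each group had 1 library. Only genes that met the conditions of the ranking, and its level and UMI minimum at DN3b, were searched. Mxd4 had a log2 ratio of γδ+ over γδ− of 1.919 at DN4 and -1.018 at DN3b. Il7r had 1.59 and -1.085, and Klf3 1.041 and -1.47. In the other sense, Hist1h2ae had -1.26 at DN4 and 1.017 at DN3b, Gm10076 -1.045 and 1.539, and Hist1h2ap -2.093 and 2.337. Gm10076 was also lower in the B-like barcodes of DN4 γδ+ (320 CPM) than in those of DN4 γδ− (591 CPM). So were Hist1h2ap (36.9 and 248 CPM) and Hist1h2ae (23.1 and 129 CPM). The share of barcodes called S or G2M was 91.2% in DN3b γδ+, 96.0% in DN3b γδ−, 20.2% in DN4 γδ+ and 94.7% in DN4 γδ−. Its part in the ratios was not tested. Among G1 barcodes of DN4 the ratios were 0.05 for Mxd4, 0.37 for Klf3 and 1.36 for Il7r. Among S or G2M barcodes they were 0.74, 0.16 and 1.25, and Hist1h2ae was at -0.04, Hist1h2ap at -0.83 and Gm10076 at -0.96. Mxd4 and Klf3 were thus within 2-fold in both strata, and Il7r was not.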

How the results depend on the processing

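No paired analysis was possible because each group has 1 library, and for the same reason no replicate could be left out. The counts of 1058 higher and 525 lower genes were 634 higher among G1 barcodes, 632 and 162 among S or G2M barcodes, 1032 lower with TMM, 705 and 1085 with median-of-ratios scaling, 506 higher and 669 lower after subtracting the CPM of B-like barcodes, where only 2687 genes were measured (18.8% and 24.9% of them), and 345 and 2966 in UMIs per barcode, a scale added after seeing the data. The share of calls on the higher side was 66.8% as reported, 41.4% with TMM, 39.4% with median of ratios, 43.1% after the subtraction, 10.4% in UMIs per barcode, 79.6% in S or G2M and 59.9% in G1. A minimum of 5 CPM gave 1947 higher genes, 50 CPM gave 559 and no minimum gave 5057 higher and 2005 lower. The γδ TCR signature median of 4.62 was 4.51 without the B cell gene limit, 4.53 with barcodes thinned to 4000 UMIs, 2.69 in G1, 4.33 in S or G2M, 4.73 without the 8% of barcodes with the most UMIs, 4.28 with TMM, 4.26 with median of ratios, 4.40 with equal weight per barcode, 4.75 after the subtraction and 3.50 in UMIs per barcode. In the same order from the thinning on, the pre-TCR median of -4.22 was -4.75, -5.66, -3.58, -5.02, -4.55, -4.58, -4.89, -3.82 and -5.33. In that order, the median of the S and G2M genes of -0.96 was -1.56, -1.10, 0.16, -1.64, -1.30, -1.33, -1.59, -0.89 and -2.08, and it was -1.03 with a total free of mitochondrial and ribosomal-protein genes. These medians take the genes at 20 CPM under each setting. Of 139 named genes past 2-fold, 138 kept their direction in G1, 138 in S or G2M and 138 in UMIs per barcode, and the exceptions were Fcer1g (-0.35 in G1), Ccne1 (0.030 in S or G2M) and Klf3 (-0.075 per barcode). Past 2-fold were still 123, 118 and 121 of them. The cause was not tested. Barcodes thinned to 4000 UMIs gave 1214 higher and 735 lower genes. The comparisons are limited by the 1 library per group and, for genes with few UMIs, by depth.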

Other observations

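Gene lists that the account above leaves out gave these values. Of 16 immediate early and stress genes 10 were higher in DN4 γδ+ and 1 lower (62.5% and 6.25%, against 18.1% and 9.0% of all genes). Their median log2 ratio was 1.30, and 0.54 among G1 barcodes. Zfp36 (2.65), a factor that destabilises mRNA, Junb (2.24), Zfp36l1 (2.24) and the phosphatase gene Dusp1 (2.21) were the highest, and the heat-shock genes Hsph1 (-1.55), Hspa8 (-0.73) and Dnaja1 (-0.34) the lowest. Of 8 PLZF-type genes 3 were measured, Cd200 (3.28), Gzma (1.53) and Plac8 (1.31), which were higher over all barcodes, while 0 of the 3 were past 2-fold among G1 barcodes (median 0.70). In the Myc network Mxd1 (1.49) and Mxd4 (1.92), which oppose MYC, were higher over all barcodes but within 2-fold in G1 (0.68 and 0.05) and in S or G2M barcodes (0.98 and 0.74), Myc was lower (-1.88), and their partners Max (-0.02) and Mlx (0.20) were nearly level. Of 9 iron and amino-acid transport genes 2 were lower (22.2%, against 9.0% of all genes), Slc7a5 (-1.83) and Slc43a3 (-1.09).

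The ratio also moved with transcript length. Over 2065 genes with a longest transcript of 4000 nt or more the median log2 ratio was 0.32, over 2257 genes of the next shorter class 0.04, over 1081 genes -0.03 and over 318 genes -0.27, while the 32 shortest had 0.14. In B-like barcodes of the same libraries the medians in that order were -0.00, -0.15, -0.19, -0.37 and -0.14. Length is a property of the annotation (the longest transcript of each gene), and its part in the results was not tested.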
